A study of Mus musculus with 21 samples.

Results

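The early transcriptional change of cells given FcMR was measured here by setting the 3 libraries collected after 4 h of FcMR against the 3 libraries of untreated cells (0 h). These 6 libraries were taken by their titles from 21, and 13468 of the 23250 genes in the deposited table held enough counts to be tested. All cells were mouse bone marrow-derived macrophages on the C57BL/6J background, grown for 7 days with a dilute supernatant of cells that secrete GM-CSF, and the series describes the cells as deficient in the mannose receptor (MR). FcMR joins the constant (Fc) region of human IgG1 to the extracellular region of the MR. A further 3 libraries from cells given an isotype control protein for 4 h are shown beside the comparison. The study addressed what a soluble form of the MR does to macrophages.

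No untreated library of 4 h was analysed here, so 4 h in culture, the handling of the cells, a protein that carries a human Fc region and the MR part of FcMR cannot be told apart in this comparison. The isotype libraries share the 4 h in culture, and both contrasts use the same untreated libraries. No label says whether replicate libraries came from separate mice or cultures, so every p-value measures only the spread between these libraries. The age of the mice is not given in the sources used here.

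As background, the mannose receptor is a C-type lectin on macrophages and dendritic cells that binds mannosylated glycoproteins, and its extracellular region can be shed as a soluble protein. Macrophages that sense danger through Toll-like receptors or Fc receptors free NF-kB from its inhibitors. NF-kB with AP-1 then drives cytokine and chemokine genes, and type I interferon made in the same response drives antiviral genes through its receptor. Many of the first induced proteins are inhibitors of the same pathway, so feedback begins early.

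Totals ran from 9292540 to 19376498 counts in the untreated libraries and from 6306625 to 31978437 after FcMR. At these depths 3 counts amount to 0.094 to 0.476 CPM, the usual unit of counts relative to library size, a floor that covers counting error only. Levels below are CPM after scaling between libraries by TMM, and a gene is called when its Benjamini-Hochberg adjusted p in edgeR's quasi-likelihood test is under 0.05. Libraries within the untreated and within the FcMR group correlated at 0.975 to 0.986 in log2 CPM, and libraries of the 2 groups at 0.883 to 0.914. The isotype 4 h libraries correlated with each other at 0.92 to 0.964 and held 5532225 to 9171892 counts. GC-rich genes read relatively higher in all 3 untreated libraries than in all 3 FcMR libraries: the mean log2 deviation of the 10% of genes richest in GC minus that of the 10% poorest was 0.833, 0.0501 and 0.47 in untreated and -0.397, -0.188 and -0.545 after FcMR. The isotype libraries were at -0.853, -1.64 and 0.659. Its part in single genes' values was not tested, and list counts that a correction for GC content or another alternative moves by over 1.5 times are given beside the main ones.

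Markers of macrophages summed to 24838 to 25813 CPM in untreated and 29063 to 29468 CPM in FcMR libraries. The granulocyte markers were lower after FcMR, 1247 to 1445 CPM against 1816 to 1998 CPM, with 6 of 11 called lower and 0 higher. Dendritic cell markers summed to 1665 to 1830 CPM against 1358 to 1496 CPM. Mast cell and basophil markers summed to 49.8 to 60.5 CPM in untreated and 57.9 to 64.6 CPM in FcMR libraries. Markers of T, B, NK, stromal and erythroid cells summed to at most 8.83 CPM per list in all 6 libraries. In these bulk libraries fewer cells of a type and less RNA per cell cannot be told apart. Mrc1, which encodes the MR, was at 0.291, 0.414 and 0.245 CPM in untreated and 0, 0.414 and 0.373 CPM in FcMR libraries, at most 11 counts in each, and was not tested.

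At 4 h a large share of all genes differed between FcMR and untreated cells. Of the 13468 genes tested 6498 were called (48.2%), 3007 higher (22.3%) and 3491 lower (25.9%). The largest changes were upward: 627 genes were called over 4-fold higher (4.66%) and 376 over 4-fold lower (2.79%), while 172 were over 16-fold higher (1.28%) and 33 over 16-fold lower (0.245%). The 3 untreated and 3 FcMR levels did not overlap for 8677 genes (64.4%). Isotype control at 4 h against the same untreated libraries gave 4792 calls (35.6%), 2743 higher (20.4%) and 2049 lower (15.2%). FcMR against isotype at 4 h gave 2390 (17.7%), 1161 higher (8.62%) and 1229 lower (9.13%). These shares are the background for the count of every gene list below.

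**Figure D1:**
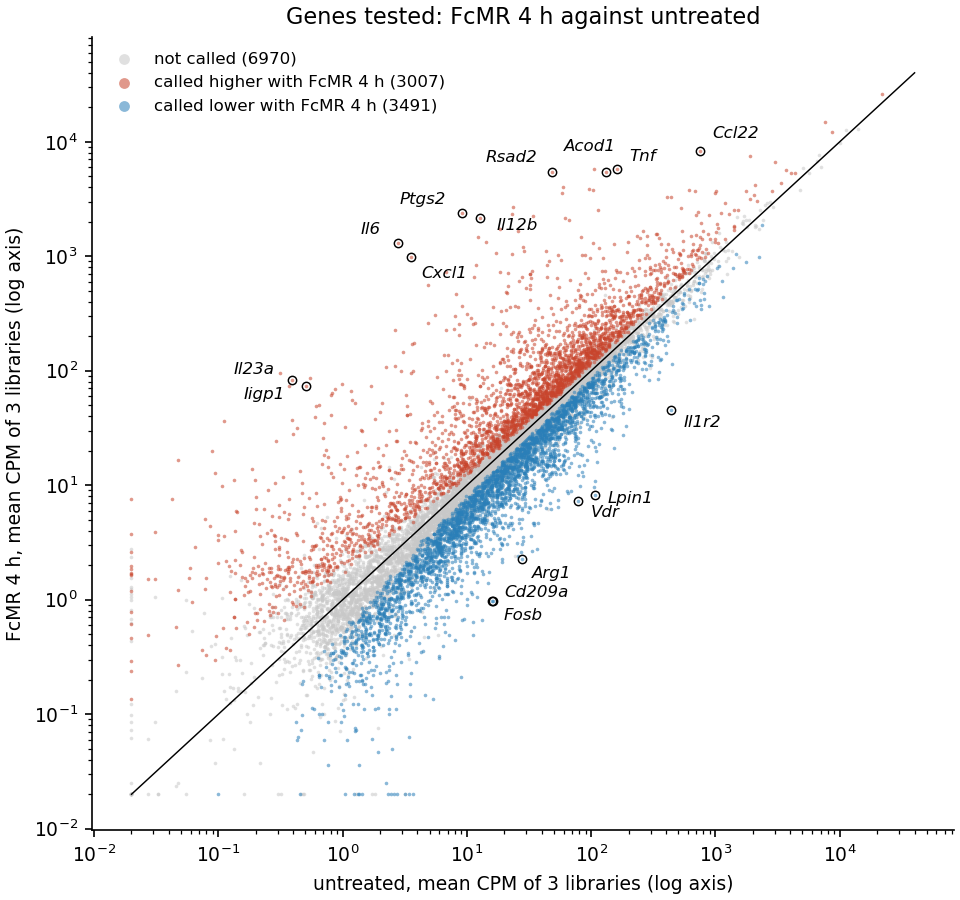
Mean CPM of the 3 untreated libraries (x axis) against the mean of the 3 FcMR 4 h libraries (y axis) for the 13468 genes tested, both on log axes, with means under 0.02 CPM drawn at 0.02 and the diagonal marking equal levels. Genes called higher (3007) lie above the diagonal and those called lower (3491) below it; labelled genes include Il6, Cxcl1 and Ptgs2 far above it and Arg1, Fosb and Cd209a below it.

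Cytokine genes rose steeply. Of 19 inflammatory cytokine genes tested 18 were called higher and 0 lower, 15 of them by over 4-fold, with a median log2 fold change of 5.23 against -0.11 over all genes tested. Summed over the list, the level went from 567 to 597 CPM in untreated libraries to 19131 to 20810 CPM after FcMR, with 3067 to 3588 CPM in isotype libraries. Il6 (chromosome 5, 30013114 to 30019981), which encodes the inflammatory cytokine interleukin-6, had the highest fold change of all named genes. It measured 1.85, 3.31 and 3.27 CPM in untreated and 1341, 1301 and 1299 CPM after FcMR, a log2 fold change of 8.83 ± 0.309 or 454-fold (adjusted p = 1.69e-13). The FcMR levels lay close together and far above every untreated library, and isotype libraries lay between the groups at 149, 146 and 103 CPM.

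Tnf, which encodes tumour necrosis factor, went from 162, 154 and 165 CPM to 5762, 6087 and 5521 CPM (log2 fold change 5.17 ± 0.124, adjusted p = 1.42e-15). Il1b, the gene of the fever-inducing cytokine interleukin-1 beta, went from 90.7, 116 and 107 CPM to 5596, 6070 and 5638 CPM (log2 fold change 5.79 ± 0.174, adjusted p = 2.33e-14). Neither gene's groups came near to overlapping, and the isotype libraries held 1135, 862 and 1174 CPM of Tnf and 1035, 1108 and 768 CPM of Il1b, above all untreated and below all FcMR libraries. Il1b overlaps a gene annotated on the opposite strand, and the sources used here do not state that reads were assigned by strand. Of the 187 genes named by rule, 62 overlap another annotated gene.

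Genes for the interleukin-12 family, dimeric cytokines that direct T cells, were all called higher. Il12b, the subunit that interleukin-12 and interleukin-23 share, was at 12.1, 14.3 and 12.1 CPM in untreated and 1904, 2479 and 2128 CPM in FcMR libraries, 168-fold (log2 fold change 7.40 ± 0.201, adjusted p = 6.52e-15). Its partner in interleukin-23, Il23a, went from 0.486, 0.368 and 0.327 CPM to 74.9, 89 and 86.3 CPM (log2 fold change 7.73 ± 0.252, adjusted p = 5.88e-14). Il12a, the other partner, had 0, 4 and 1 counts in untreated libraries and 255, 536 and 115 after FcMR, so its fitted log2 fold change of 7.38 depends on few counts. Il27 went from 0.291, 0.414 and 0.409 CPM to 67.2, 86.8 and 67.5 CPM (log2 fold change 7.57 ± 0.461), whereas its partner Ebi3 rose 2.64-fold, from 30, 18.4 and 22.6 CPM to 60.4, 69.1 and 56.8 CPM.

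Il10 and Ifnb1 had few counts before treatment. Il10, which encodes an anti-inflammatory cytokine, had 1, 4 and 0 counts in untreated and 156, 348 and 76 counts in FcMR libraries (11, 13.1 and 14.2 CPM). Ifnb1, the gene of interferon beta, held at most 3 counts in each untreated library and 44, 115 and 18 counts after FcMR. Taking 3 counts per library as the floor, its level was at least 16-fold higher (adjusted p = 3.64e-06). Isotype libraries held 7, 1 and 3 counts of Ifnb1, and FcMR exceeded isotype at 4 h by a log2 difference of 2.79 (adjusted p = 0.00194). Il18, which is expressed before stimulation in many cells, was the 1 cytokine gene not called, at 12.3, 12.4 and 11 CPM in untreated and 16.8, 15.8 and 8.2 CPM in FcMR libraries.

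Of 19 chemokine genes tested 18 were called higher and 0 lower, with a median log2 fold change of 4.26. The neutrophil attractants Cxcl1, Cxcl2 and Cxcl3, which lie side by side on chromosome 5, were each called. Cxcl1 went from 3.11, 2.39 and 5.15 CPM to 910, 768 and 1257 CPM, 282-fold (log2 fold change 8.14 ± 0.535, adjusted p = 7.03e-10). Cxcl2 went from 55.6, 55.1 and 64.7 CPM to 3156, 3807 and 3742 CPM, 61.1-fold (log2 fold change 5.93 ± 0.239, adjusted p = 9.06e-13). Cxcl3 went from 19.3, 16.9 and 19.4 CPM to 1575, 1767 and 1829 CPM (log2 fold change 6.54 ± 0.306). For each of the 3 genes the FcMR values lay above all untreated and all isotype values of the same gene. Cxcl5, another attractant of neutrophils, had at most 1 count in each untreated library and 13.2, 18.4 and 18.6 CPM after FcMR, at least 74.4-fold higher against a floor of 3 counts per library (adjusted p = 4.2e-09).

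Attractants of monocytes and T cells rose as well. Ccl3 and Ccl4, attractants of monocytes, rose 40.4-fold and 35.1-fold, to 4220, 3946 and 3537 CPM and to 2241, 2379 and 1878 CPM. Cxcl10, an interferon-induced ligand of Cxcr3, went from 38, 36.6 and 26.6 CPM to 2288, 2248 and 2162 CPM (log2 fold change 6.05 ± 0.177, adjusted p = 1.92e-14). Ccl22, which attracts regulatory T cells and which is also listed among alternative activation genes, showed the largest rise in CPM among all named genes. It measured 715, 801 and 738 CPM in untreated and 8563, 9312 and 7221 CPM after FcMR, 11.1-fold (log2 fold change 3.48 ± 0.117, adjusted p = 9.52e-14), while isotype libraries held 4828, 4123 and 4396 CPM. Ccl6 was the chemokine gene not called, at 7033, 7259 and 6936 CPM in untreated and 6381, 5863 and 5667 CPM after FcMR (adjusted p = 0.0517). With the GC correction 1 chemokine gene was called lower.

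The promoters of Il6 and of the 3 neighbouring chemokine genes, and that of the NF-kB inhibitor Nfkbia, hold matches to the kB motif, the site that NF-kB proteins bind. The stretches below are the 120 bases before the RefSeq start of each gene (build GRCm38.p6), read 5′ to 3′ along the gene's strand, with every match on either strand in capitals; where a gene has several starts, one with a match was taken. They are shown because Cxcl1, Cxcl2 and Cxcl3 carry the same 11 letters at different distances from the start.
Il6, chr5:30012994-30013113 (plus strand): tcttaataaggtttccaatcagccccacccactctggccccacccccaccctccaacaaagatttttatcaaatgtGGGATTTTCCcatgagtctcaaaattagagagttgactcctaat
Cxcl1, chr5:90891125-90891244 (plus strand): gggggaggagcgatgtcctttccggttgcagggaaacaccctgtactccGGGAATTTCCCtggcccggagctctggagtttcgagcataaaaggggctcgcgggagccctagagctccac
Cxcl2, chr5:90903779-90903898 (plus strand): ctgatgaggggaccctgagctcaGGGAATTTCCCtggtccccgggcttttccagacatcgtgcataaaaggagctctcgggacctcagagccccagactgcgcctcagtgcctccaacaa
Cxcl3, chr5:90785981-90786100 (plus strand): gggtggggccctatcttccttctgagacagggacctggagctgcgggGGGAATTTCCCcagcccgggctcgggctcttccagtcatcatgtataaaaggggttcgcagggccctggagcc
Nfkbia, chr12:55492648-55492767 (minus strand): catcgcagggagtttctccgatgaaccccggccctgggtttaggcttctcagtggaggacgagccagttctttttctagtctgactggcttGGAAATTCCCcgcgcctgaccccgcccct
The matches begin at -44 in Il6, -71 and -70 in Cxcl1, -97 and -96 in Cxcl2, -73 and -72 in Cxcl3 and -29 in Nfkbia, where -1 is the last base before the start. In Cxcl1, Cxcl2 and Cxcl3 the 2 matches overlap by all but 1 base. A match is a description of letters and not evidence of binding.

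Among subunits and feedback inhibitors of NF-kB, of 18 genes tested 14 were called higher and 0 lower (median log2 fold change 0.77). That count was 18 after the GC correction and fell to 9 without FcMR replicate 1 and to 9 without FcMR replicate 2. Nfkbia, the inhibitor that holds NF-kB in the cytoplasm, went from 357, 328 and 393 CPM to 761, 840 and 794 CPM, 2.22-fold (log2 fold change 1.15 ± 0.173, adjusted p = 2.61e-05). Tnfaip3, the ubiquitin-editing inhibitor A20, went from 257, 295 and 296 CPM to 1382, 1578 and 1564 CPM (log2 fold change 2.42 ± 0.0818, adjusted p = 1.04e-13). Nfkbiz, an atypical inhibitor that promotes Il6 transcription, rose 17.4-fold, from 30.4, 33.4 and 33 CPM to 544, 591 and 553 CPM (adjusted p = 3e-14). Among the subunits, Nfkb1 rose 2.06-fold, while Rela, at 114, 91.6 and 117 CPM and 140, 160 and 153 CPM, was not called (adjusted p = 0.169). For Nfkbia the isotype libraries (358, 290 and 564 CPM) overlapped the untreated ones, and FcMR exceeded isotype by a log2 difference of 0.98 (adjusted p = 0.000621).

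Immediate early genes, transcription factor and phosphatase genes that respond within minutes of a stimulus, were by 4 h more often lower than higher. Of 26 tested 6 were called higher and 11 lower (median log2 fold change -0.48); after the GC correction the counts were 9 and 8, so the balance of the list depends on that choice. Fosb, a partner in the AP-1 factor, fell from 15, 15 and 18.9 CPM to 1.13, 1.39 and 0.373 CPM, 14.9-fold (log2 fold change -3.89 ± 0.475, adjusted p = 2.35e-06). Isotype libraries overlapped those of FcMR (0.574, 0.18 and 1.16 CPM). Fos fell from 22.8, 21.2 and 27 CPM to 9.42, 10 and 8.2 CPM (log2 fold change -1.34 ± 0.175, adjusted p = 5.54e-06), Egr3 fell 5.88-fold and Myc 3.03-fold. Egr1 was not called, at 23.3, 20 and 22.5 CPM in untreated and 22, 21.8 and 22.7 CPM after FcMR. Genes of the list called higher included Dusp2, a phosphatase of MAP kinases (4.1-fold), Klf6 (2.11-fold), the stress-induced factor Atf3 (1.97-fold) and Fosl2 (1.81-fold).

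**Figure D2:**
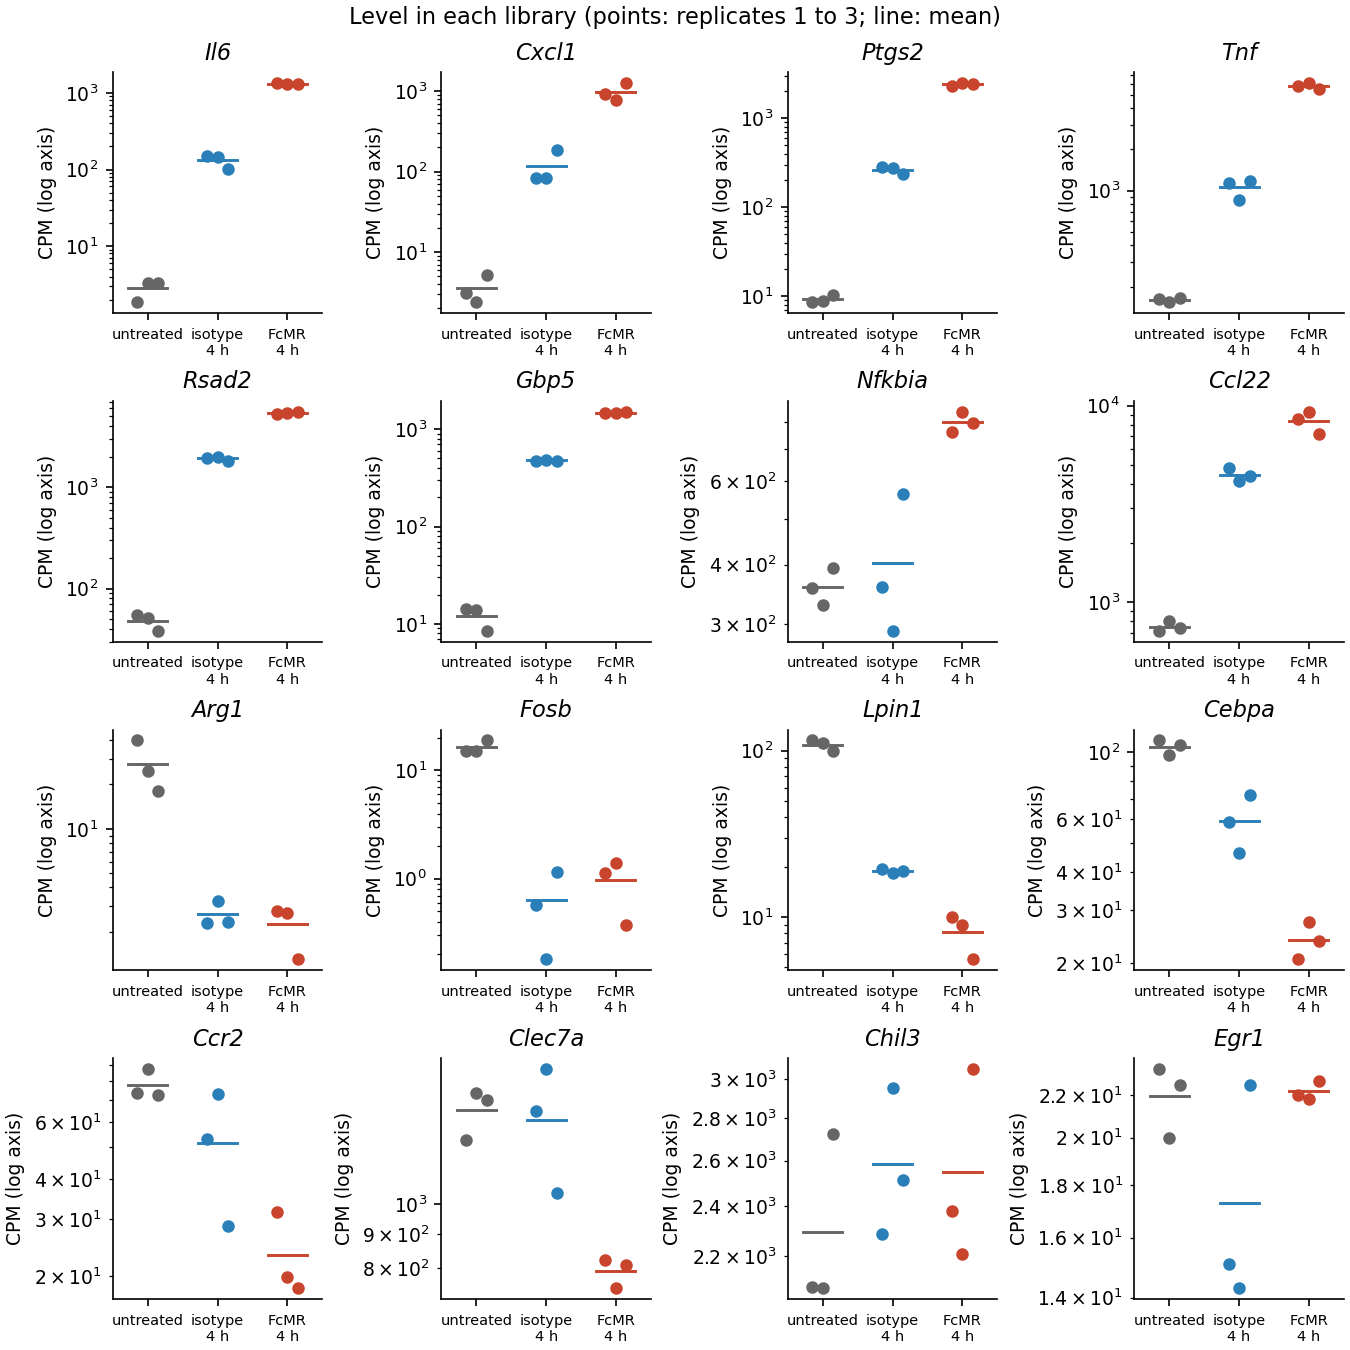
CPM (log axis, its range differing between panels) of 16 genes in each of the 3 untreated, 3 isotype 4 h and 3 FcMR 4 h libraries, with points for libraries and a line for the mean. The FcMR points lie above all others for Il6, Cxcl1, Ptgs2, Tnf, Rsad2, Gbp5, Nfkbia and Ccl22 and below all others for Lpin1, Cebpa and Clec7a, and they overlap the isotype points for Arg1, Fosb, Ccr2, Chil3 and Egr1.

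Antiviral interferon-stimulated genes were called higher without an exception in the list, 30 of 30, 28 by over 4-fold, with a median log2 fold change of 4.83 and a summed level of 23986 to 24528 CPM after FcMR against 766 to 976 CPM in untreated libraries. Isotype at 4 h also gave 30 of 30 calls higher, with a median of 3.85 and a summed level of 10619 to 11031 CPM. Rsad2, which encodes the antiviral enzyme viperin (chromosome 12, 26442746 to 26456452), went from 55.1, 51.3 and 38.3 CPM to 5312, 5408 and 5556 CPM, 113-fold (log2 fold change 6.81 ± 0.217, adjusted p = 4.43e-14). Ifit2, whose product binds foreign RNA, went from 28.3, 24.2 and 17.9 CPM to 2778, 2535 and 2731 CPM (log2 fold change 6.84 ± 0.283, adjusted p = 1.29e-12). Isg15, a ubiquitin-like modifier, went from 19.7, 16.7 and 15.2 CPM to 950, 1157 and 1077 CPM (log2 fold change 5.95 ± 0.274, adjusted p = 5.24e-12). The FcMR and untreated libraries were apart for every gene of the list, and the isotype libraries of Rsad2 (1966, 2008 and 1805 CPM) and Ifit2 (1196, 1251 and 921 CPM) lay between them. Irf7, the factor that amplifies interferon production, rose 40.5-fold to 365, 390 and 349 CPM. Stat2 and Irf9, which act together downstream of the interferon receptor, rose 7.04-fold and 2.69-fold.

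Interferon-inducible GTPases, which attack vacuoles that hold intracellular pathogens, were called higher for 15 of 16 genes and lower for 0 (median log2 fold change 4.31). Gbp5, which promotes inflammasome assembly, went from 14.1, 13.9 and 8.5 CPM to 1479, 1452 and 1505 CPM, 121-fold (log2 fold change 6.92 ± 0.215, adjusted p = 3.11e-14). Iigp1 went from 0.486, 0.46 and 0.572 CPM to 69.8, 67.1 and 83.3 CPM (log2 fold change 7.17 ± 0.322, adjusted p = 3.72e-12). Gbp8 was the exception, at 15, 17 and 16.1 CPM in untreated and 12.6, 13.4 and 14.9 CPM in FcMR libraries, and was not called (adjusted p = 0.201). With the GC correction 1 gene of the list was called lower. Several of these genes, like Tgtp1 with Tgtp2 and the guanylate-binding genes of 1 cluster, belong to families of related copies. Estimated counts may be divided unevenly between such copies, and how far they share reads was not measured. Trim30c, outside this list, belongs to such a family too and went from 0.777, 0.46 and 0.409 CPM to 86, 84.7 and 86.6 CPM (161-fold).

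Many promoters of these genes hold another motif. The interferon response element was searched as GAAANNGAAA on both strands, and the 120 bases before the start of 6 called genes are shown with each match in capitals, because several hold overlapping copies.
Rsad2, chr12:26456453-26456572 (minus strand): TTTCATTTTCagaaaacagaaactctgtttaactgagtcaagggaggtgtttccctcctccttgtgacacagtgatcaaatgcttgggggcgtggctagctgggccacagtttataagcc
Isg15, chr4:156200819-156200938 (minus strand): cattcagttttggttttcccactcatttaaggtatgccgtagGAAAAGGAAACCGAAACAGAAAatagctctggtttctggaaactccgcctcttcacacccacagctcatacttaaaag
Ifit1, chr19:34640769-34640888 (plus strand): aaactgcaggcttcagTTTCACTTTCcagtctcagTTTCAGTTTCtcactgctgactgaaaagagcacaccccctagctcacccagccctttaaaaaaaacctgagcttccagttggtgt
Gbp2, chr3:142620543-142620662 (plus strand): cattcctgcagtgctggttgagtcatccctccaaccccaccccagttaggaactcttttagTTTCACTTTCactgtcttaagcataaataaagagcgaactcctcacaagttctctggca
Gbp3, chr3:142559924-142560043 (plus strand): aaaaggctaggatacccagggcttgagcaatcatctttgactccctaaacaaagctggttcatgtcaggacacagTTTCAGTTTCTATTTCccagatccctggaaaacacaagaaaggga
Irgm1, chr11:48871421-48871540 (minus strand): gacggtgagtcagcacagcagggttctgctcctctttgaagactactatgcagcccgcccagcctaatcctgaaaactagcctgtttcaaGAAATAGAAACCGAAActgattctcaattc
In Isg15 matches begin at -78, -72 and -66 and run into each other, and Gbp3 and Irgm1 each hold 2 overlapping matches. Ifit1 holds 2 separate ones, at -104 and -85. The same genes at FcMR 4 h were 102-fold (Ifit1), 17.7-fold (Gbp2), 17.8-fold (Gbp3) and 16.4-fold (Irgm1) above untreated.

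Over all genes, motif matches were counted in RefSeq windows from 250 bases before to 50 bases after the start, which matched 9821 of 13439 tested symbols. The interferon response element was in a window of 4.15% of tested genes, of 19.2% of those called over 4-fold higher, of 37.6% of those called over 16-fold higher and of 4.08% of those called over 4-fold lower. The kB motif was in 6.35%, 10.8%, 13.7% and 5.71% of these classes. The AP-1 motif, searched as TGANTCA, was in 6.54%, 14.6%, 16.2% and 11.4%. The CArG box was in 1.44%, 1.64%, 0.855% and 1.22%, and the cAMP response element, searched as TGACGTCA, in 3.51%, 1.64%, 0.855% and 2.86%. Of all 32851 windows in the table, 3.44% held the interferon response element, 4.51% the kB motif, 7.81% the AP-1 motif, 1.63% the CArG box and 1.79% the cAMP response element. By list, 10 of 15 NF-kB genes with a window held a kB match, as did 5 of 11 chemokine and 4 of 12 cytokine genes. The interferon element was in 13 of 23 antiviral and 9 of 10 GTPase genes, and in 0 of 12 cytokine genes. These shares were given no test.

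**Figure D3:**
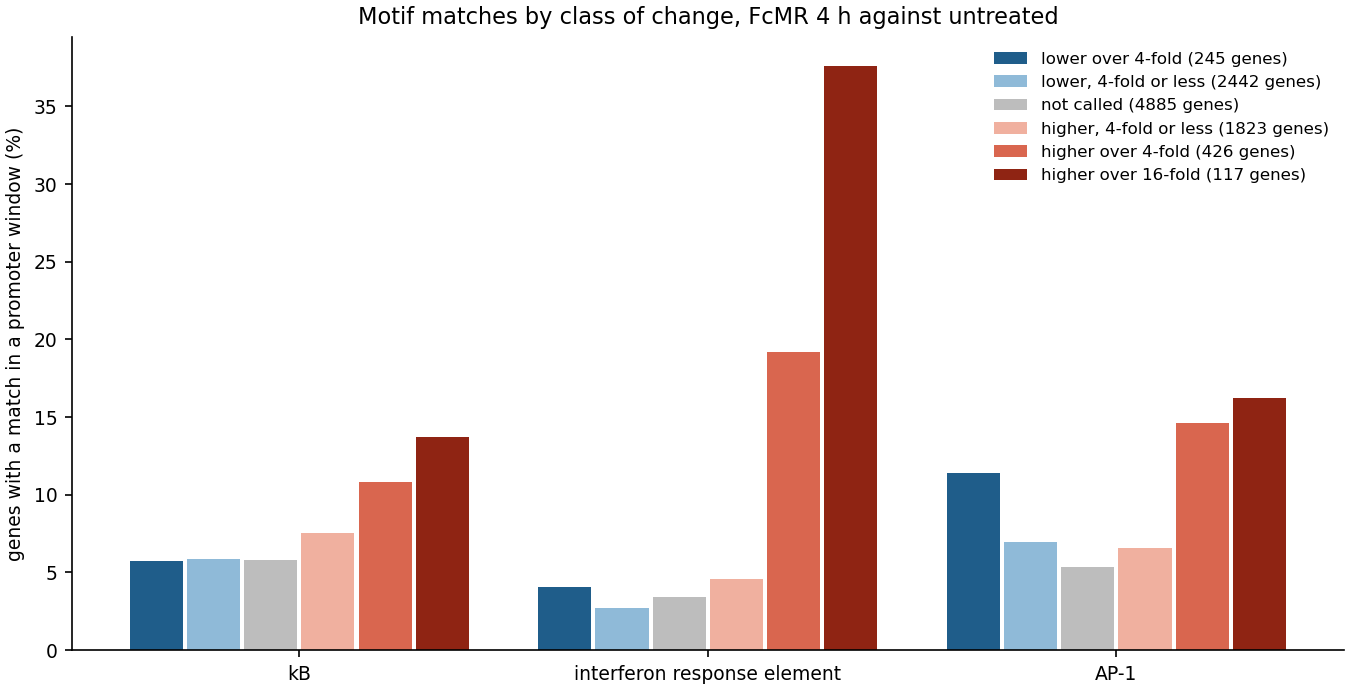
Percent of genes whose promoter window (250 bases before to 50 after the start) holds a match to the kB motif, the interferon response element or the AP-1 motif, for 6 classes of change with FcMR at 4 h; the class over 16-fold is part of the class over 4-fold. Interferon response elements rise from 3.42% of genes not called to 37.6% of those over 16-fold higher, and AP-1 bars are taller in both outer classes than among genes not called (5.36%).

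Some genes over 4-fold higher lay beside each other. Among 11906 protein-coding genes tested, 533 (4.48%) were called over 4-fold higher, and 201 of these (37.7%) had such a gene as a direct neighbour in the tested order. A gene has a neighbour on each side, so 4.48% is not the rate to set beside 37.7%. The share of all tested protein-coding genes with such a neighbour was not counted. They formed 22 runs of at least 3 neighbours, holding 101 genes. The longest run, 12 genes over 576 kb of chromosome 1, was the family of interferon-inducible DNA sensors from Ifi206 to Ifi205 with an olfactory receptor gene at its end, and log2 fold changes ran from 2.10 to 6.75. A run of 10 genes on chromosome 11, from Irgm1 to Ifi47, held GTPases. Further runs were 7 genes of chromosome 15 with 6 of the apolipoprotein L family, 6 genes of the Ifit cluster on chromosome 19, 6 around Phf11 on chromosome 14, 5 Oas genes on chromosome 5 and 5 Trim genes on chromosome 7. Near-identical members of these families can share reads, so that such neighbours are not independent measurements. The chemokine genes gave a run of Cxcl3, Cxcl1 and Cxcl2, and one of Ccl2, Ccl7, Ccl12 and Ccl1 on chromosome 11.

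Enzymes that make nitric oxide, prostaglandins and itaconate were mostly higher, 11 of 16 called higher and 4 lower (median log2 fold change 1.76). Ptgs2, the inducible cyclooxygenase, went from 8.55, 8.83 and 10.2 CPM to 2281, 2470 and 2445 CPM, 261-fold (log2 fold change 8.03 ± 0.242, adjusted p = 2.33e-14). Nos2, the inducible nitric oxide synthase, went from 3.3, 1.93 and 2.7 CPM to 207, 258 and 218 CPM, 88.8-fold (log2 fold change 6.47 ± 0.301, adjusted p = 6.03e-12). Acod1, which makes itaconate, went from 148, 133 and 112 CPM to 5424, 5551 and 5360 CPM (log2 fold change 5.38 ± 0.108, adjusted p = 3.27e-16). For Ptgs2 and Nos2 the FcMR libraries were also far above isotype (283, 275 and 235 CPM and 22, 15.9 and 35.7 CPM). The 4 genes called lower were Ptgs1, the constitutive cyclooxygenase (3.88-fold), Alox5 and its partner Alox5ap of leukotriene synthesis (3.34-fold and 1.69-fold) and Hpgds, a prostaglandin D synthase (1.82-fold, a call lost in the authors' normalized values). Microsomal prostaglandin E synthase, Ptges, rose with Ptgs2, by 12.4-fold to 38.2, 43.7 and 41 CPM.

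Feedback genes of cytokine signalling were called higher for 10 of 14 and lower for 2 (median log2 fold change 0.88). Socs3, which blocks interleukin-6 signalling, went from 44.5, 30.9 and 36.7 CPM to 332, 370 and 353 CPM (log2 fold change 3.24 ± 0.323, adjusted p = 1.79e-07). Il1rn, the natural antagonist of interleukin-1, rose 4.98-fold to 2636, 2664 and 2599 CPM. The 2 called lower were receptor genes. Il1r2, the decoy receptor that captures interleukin-1, fell from 418, 477 and 418 CPM to 46.3, 46.4 and 42.5 CPM, 9.69-fold (log2 fold change -3.28 ± 0.149, adjusted p = 4.32e-12), and isotype libraries, at 42.1, 45.8 and 34.4 CPM, overlapped those of FcMR. Il6st, the signalling chain shared by interleukin-6 family receptors, fell 2.49-fold, to 127, 122 and 116 CPM.

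Of 20 Toll-like receptor and adaptor genes tested 11 were called higher and 1 lower (median log2 fold change 0.69). The count lower was 0 to 3 under the alternatives. Tlr3, a sensor of double-stranded RNA, went from 2.04, 1.89 and 2.04 CPM to 49, 40.2 and 40.8 CPM (log2 fold change 4.45 ± 0.255, adjusted p = 1.09e-10). Tlr1 rose 12.5-fold, Myd88 3.2-fold and the inhibitory kinase gene Irak3 4.17-fold. Cd14, the co-receptor for lipopolysaccharide, went from 311, 297 and 418 CPM to 704, 797 and 758 CPM (log2 fold change 1.14 ± 0.267, adjusted p = 0.00187). Tlr4, the receptor for lipopolysaccharide, was the gene called lower, at 50, 56.7 and 56.6 CPM in untreated and 42.5, 35.3 and 32.2 CPM after FcMR (1.48-fold, adjusted p = 0.0305). That call was lost without untreated replicate 2 or 3, without FcMR replicate 2 or 3, without the filter on low counts, with DESeq2's size factors and in the authors' normalized values.

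Chemokine and chemoattractant receptors were called higher for 4 of 14 genes and lower for 6 (median log2 fold change -0.35). Ccrl2, a receptor that presents chemerin, went from 30, 35.7 and 31.9 CPM to 647, 659 and 613 CPM (log2 fold change 4.29 ± 0.0977, adjusted p = 1.09e-15), and the formyl peptide receptors Fpr1 and Fpr2 rose 5.47-fold and 7.75-fold. Ccr7, which guides dendritic cells to lymph nodes, rose 1.77-fold. Ccr2, the monocyte receptor for Ccl2, fell from 73.7, 87.3 and 72.7 CPM to 31.7, 19.9 and 18.4 CPM, 3.32-fold (log2 fold change -1.73 ± 0.338, adjusted p = 0.000387). Ccr1, Cxcr4, Cxcr2 and C5ar2 were called lower as well, by 2.8-fold, 3.36-fold, 2.26-fold and 9.71-fold. Ccl2, the ligand of Ccr2, rose 6-fold.

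Receptors for the Fc part of IgG, which FcMR carries, were split. Of 10 genes of this list 3 were called higher and 4 lower (median log2 fold change 0.12). Fcgr1, the high-affinity receptor, went from 53.7, 66.2 and 56.2 CPM to 130, 123 and 107 CPM, 2.04-fold (log2 fold change 1.03 ± 0.103, adjusted p = 1.91e-07). Fcgr2b, the inhibitory receptor, fell from 335, 407 and 375 CPM to 240, 233 and 230 CPM (log2 fold change -0.67 ± 0.0947, adjusted p = 1.34e-05). Fcgr3 fell 2.24-fold, the phosphatase gene Inpp5d (SHIP1) 2.32-fold and Fcgrt, the neonatal Fc receptor that recycles IgG, 5.03-fold, to 10.2, 8.76 and 8.2 CPM from 53.1, 35.4 and 49.3 CPM. The kinase Syk and the common signalling chain Fcer1g rose 1.66-fold and 1.27-fold. For Fcgr1 the isotype libraries, at 77.4, 60.8 and 71.6 CPM, were not called against untreated (adjusted p = 0.0669), and FcMR exceeded isotype (log2 difference 0.78, adjusted p = 4.23e-05).

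Ptprc, which encodes the phosphatase CD45, rose from 521, 580 and 534 CPM to 1119, 1081 and 1194 CPM, 2.08-fold (log2 fold change 1.05 ± 0.14, adjusted p = 6.37e-06), and isotype libraries reached 1030, 1211 and 817 CPM. In its list of CD45, Src family kinase and PI3K genes 10 of 17 were called higher and 2 lower (median log2 fold change 0.40), with 1 to 3 lower under the alternatives. Src rose 6.17-fold and the adaptor gene Pik3ap1 2.88-fold. Pik3cg, a catalytic PI3K subunit, fell 1.35-fold.

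**Figure D4:**
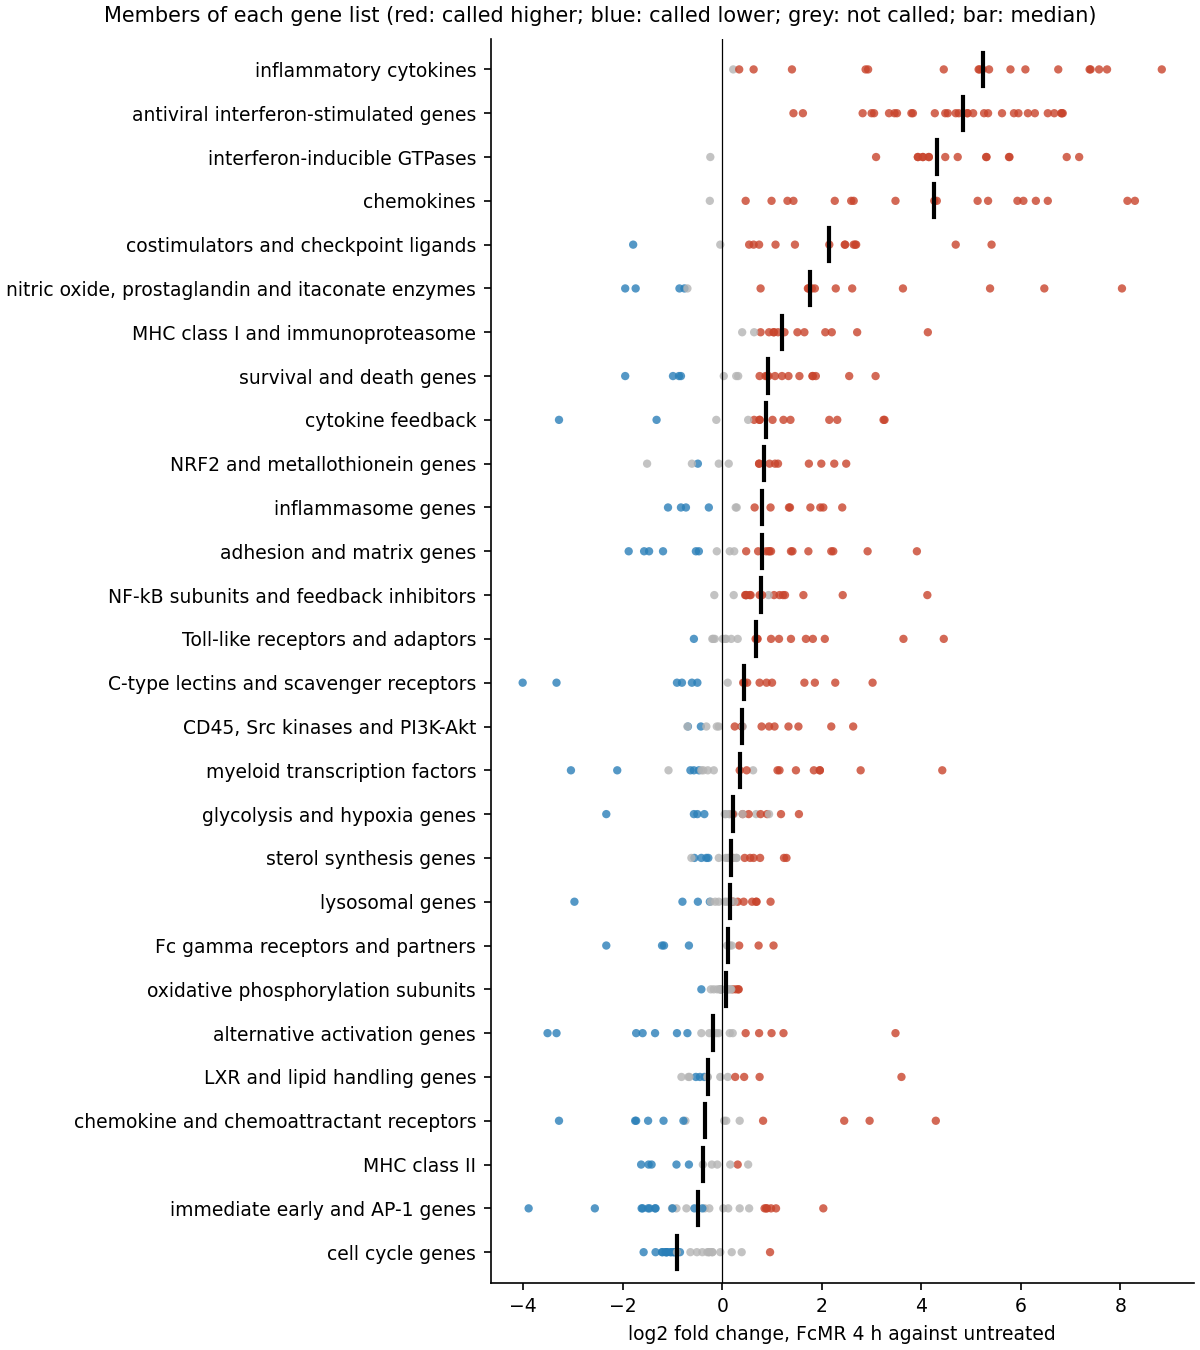
Log2 fold change of FcMR 4 h against untreated (x axis) for every tested member of 28 gene lists, 1 list per row ordered by its median (black bar); red points were called higher, blue points lower and grey points were not called. Cytokines (median 5.23), antiviral genes (4.83), GTPases (4.31) and chemokines (4.26) stand at the top and cell cycle genes (-0.91) at the bottom.

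C-type lectins and scavenger receptors, relatives of the MR in ligand recognition, were called higher for 10 of 17 and lower for 6 (median log2 fold change 0.44). Clec4e, the receptor Mincle for mycobacterial glycolipid, went from 368, 405 and 439 CPM to 3277, 3162 and 3420 CPM, 8.13-fold (log2 fold change 3.02 ± 0.153, adjusted p = 1.96e-11). Clec7a, the beta-glucan receptor dectin-1, fell from 1254, 1477 and 1442 CPM to 824, 746 and 808 CPM (log2 fold change -0.81 ± 0.14, adjusted p = 0.000116), and its isotype libraries (1385, 1605 and 1041 CPM) overlapped the untreated ones. Cd209a, a mannose-binding lectin of the DC-SIGN family, fell 16.1-fold, from 13.4, 19 and 15 CPM to 0.992, 0.978 and 0.932 CPM. The galactose-type lectins Clec10a and Mgl2 fell 10.1-fold and 1.88-fold, and neither was called between FcMR and isotype (adjusted p = 0.604 and 0.472). Mrc2, the other member of the MR family in the list, held at most 3 counts in each untreated library; its call rests on few counts and its groups overlapped.

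Genes of alternative activation, the state induced by interleukin-4, were called higher for 5 of 18 and lower for 7 (median log2 fold change -0.19). Arg1, the arginase that competes with nitric oxide synthase (chromosome 10, 24915221 to 24927484), fell from 39.8, 24.5 and 18.2 CPM to 2.76, 2.67 and 1.3 CPM, 11.4-fold (log2 fold change -3.51 ± 0.341, adjusted p = 1.28e-07). Isotype libraries, at 2.3, 3.25 and 2.32 CPM, overlapped those of FcMR, and the difference between them was not called (adjusted p = 0.894). Pparg, the nuclear receptor of lipid metabolism, fell 3.31-fold, to 10.2, 8.58 and 7.83 CPM from 27.4, 32.4 and 28.9 CPM. Chil3, which encodes the secreted lectin Ym1, was not called, at 2082, 2080 and 2724 CPM in untreated and 2381, 2207 and 3053 CPM after FcMR. The members called higher included Ccl22, described above, and Socs2 (2.34-fold).

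Antigen presentation genes were read by class. Of 14 MHC class I and immunoproteasome genes 12 were called higher and 0 lower (median log2 fold change 1.19), or 14 higher after the GC correction. Nlrc5, the transactivator of class I genes, went from 19, 22.4 and 15.3 CPM to 316, 350 and 332 CPM (log2 fold change 4.13 ± 0.127, adjusted p = 3e-14), and Tap1, which carries peptides to class I, rose 6.54-fold. Of 11 class II genes 1 was called higher and 5 lower (median log2 fold change -0.40), with 0 to 3 and 5 to 6 under the alternatives. The summed class II level did not fall, at 18585 to 19558 CPM in untreated and 18725 to 20893 CPM in FcMR libraries. Isotype libraries held 12173 to 18556 CPM, and FcMR against isotype gave 4 class II genes higher and 0 lower. H2-Ob and H2-DMa, which govern peptide loading, fell 3.09-fold and 2.67-fold. Costimulators and checkpoint ligands were called higher for 13 of 15 genes and lower for 1 (median log2 fold change 2.15). Cd40, the receptor for T cell help, went from 29.4, 29.5 and 25.3 CPM to 1002, 1340 and 1247 CPM, 42.6-fold (log2 fold change 5.41 ± 0.227, adjusted p = 1.51e-12). Cd274, the inhibitory ligand PD-L1, rose 6.45-fold to 1622, 1690 and 1722 CPM, and Havcr2, the inhibitory receptor TIM-3, fell 3.47-fold.

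Of 14 inflammasome genes 8 were called higher and 4 lower, among them Casp4 (5.31-fold) and Casp1 (3.92-fold) higher and the adaptor Pycard (1.77-fold) lower. Of 20 survival and death genes 13 were called higher and 4 lower. Cflar, an inhibitor of caspase-8, went from 229, 256 and 262 CPM to 1434, 1436 and 1501 CPM (log2 fold change 2.55 ± 0.109, adjusted p = 2.01e-12), and Mlkl, the effector of necroptosis, rose 8.45-fold. Bbc3 fell most, from a mean of 8.75 CPM in untreated to 2.17 CPM in FcMR libraries (log2 fold change -1.955 ± 0.617, adjusted p = 0.0145). Bcl2 fell 1.83-fold and the death-promoting Pmaip1 1.99-fold.

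Transcription factors of the myeloid lineage were called higher for 10 of 21 genes and lower for 5 (median log2 fold change 0.35), with 3 to 6 lower under the alternatives. Irf1, an inducer of interferon responses, went from 106, 91.3 and 84.4 CPM to 594, 671 and 665 CPM (log2 fold change 2.78 ± 0.108, adjusted p = 5.89e-13), and Batf2 rose 21.4-fold. Cebpa, a factor of myeloid differentiation, fell from 109, 97.4 and 105 CPM to 20.6, 27.4 and 23.7 CPM, 4.32-fold (log2 fold change -2.11 ± 0.171, adjusted p = 1.22e-08). Its isotype libraries lay between untreated and FcMR (58.6, 46.2 and 71.9 CPM), and FcMR was called lower than isotype, by a log2 difference of -1.30 (adjusted p = 3.58e-05).

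Metabolic lists had medians near that of all genes. Of 19 oxidative phosphorylation genes 4 were called higher and 1 lower (median log2 fold change 0.08), with log2 fold changes from -0.42 to 0.33. Under the alternatives the counts were 0 to 8 higher and 0 to 2 lower. Of 20 glycolysis and hypoxia genes 7 were called higher and 4 lower, with 4 to 16 higher and 1 to 4 lower under the alternatives, the 16 after the GC correction. Pfkfb3, which drives glycolytic flux, rose 2.91-fold and Hif1a 2.27-fold, whereas Vegfa, a hypoxia target, fell from 107, 102 and 136 CPM to 23.3, 21.3 and 24 CPM, 5.03-fold (log2 fold change -2.33 ± 0.248, adjusted p = 4.14e-07). Of 20 sterol synthesis genes 7 were called higher and 4 lower, with 4 to 12 and 0 to 5 under the alternatives. Idi1 and Fdps of the isoprenoid branch rose 2.44-fold and 2.35-fold, while Insig1, which restrains sterol synthesis, fell 1.33-fold. Lysosomal genes gave 7 higher and 4 lower of 20, with 4 to 14 and 2 to 4 under the alternatives, the 14 after the GC correction. Lpin1, a phosphatidate phosphatase of lipid synthesis (chromosome 12, 16535669 to 16610966), was among the genes with the lowest fold change, from 115, 111 and 99.9 CPM to 10.1, 8.95 and 5.59 CPM (log2 fold change -3.67 ± 0.16, adjusted p = 2.5e-12). In the LXR and lipid list 4 of 14 were called higher and 3 lower, with 2 to 4 and 0 to 5 under the alternatives. Acsl1, which activates fatty acids, was 12.1-fold higher, from 58.1, 51.3 and 50.8 CPM to 698, 637 and 603 CPM (adjusted p = 6.81e-15).

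Genes of the oxidative stress response that NRF2 controls were called higher for 9 of 14 and lower for 1 (median log2 fold change 0.84), with 0 to 2 lower under the alternatives. Nqo1, a quinone reductase, went from 25.8, 29.5 and 26.8 CPM to 142, 160 and 162 CPM, 5.63-fold (log2 fold change 2.49 ± 0.128, adjusted p = 2.3e-11). Prdx1 and Fth1 were among the genes with the largest rise in CPM, 3.97-fold and 1.95-fold, and both have pseudogene copies that can share reads. For these 3 genes FcMR against isotype was not called, and the isotype libraries of Nqo1 (184, 168 and 152 CPM) overlapped those of FcMR.

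Cell cycle genes were the list with the lowest median, -0.91, with 17 of 30 called lower and 1 higher; without untreated replicate 1 or without FcMR replicate 3 the count lower was 11, and under the alternatives 1 to 2 genes were called higher. Cdc20, an activator of mitotic exit, fell 2.99-fold, the replication helicase gene Mcm2 2.52-fold and the mitotic cyclin Ccnb1 2.31-fold. Mki67, the proliferation marker, was the exception, at 124, 108 and 80 CPM in untreated and 209, 201 and 195 CPM after FcMR (log2 fold change 0.96 ± 0.237, adjusted p = 0.00286). Adhesion and matrix genes were called higher for 13 of 22 and lower for 6. Vcam1, a ligand for leukocyte integrins, rose 7.56-fold, and Thbs1, the matrix protein thrombospondin-1, showed the largest fall in CPM of the named genes, from 1962, 2155 and 2589 CPM to 1068, 946 and 934 CPM (log2 fold change -1.19 ± 0.104, adjusted p = 3.38e-08). Isotype libraries were lower still for Thbs1, at 615, 648 and 642 CPM.

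Most of the deepest falls were not called between FcMR and isotype control. Of the 12 genes with the lowest fold change that met the naming rule, Crisp3 led at 8.26, 12.2 and 13.1 CPM in untreated and 0.425, 0.376 and 1.12 CPM after FcMR, 20.8-fold lower (log2 fold change -4.38 ± 0.476, adjusted p = 5.41e-07). Vdr, the vitamin D receptor, fell 10.5-fold, to 9.14, 7.75 and 5.03 CPM from 70.8, 80.1 and 85.5 CPM, with isotype at 10.1, 9.38 and 6.84 CPM. Celsr1, Cd300e, Hepacam2, Flnc, Hr and Hapln3 fell by 20-fold, 17.5-fold, 12.9-fold, 12.2-fold, 10.7-fold and 10.5-fold. Of these 12, with Cd209a, Fosb, Lpin1 and Arg1 given above, only Lpin1 was called between FcMR and isotype at 4 h (log2 difference -1.15, adjusted p = 5.04e-05). Each of the 12 genes with the highest fold change was called higher with FcMR than with isotype, from a log2 difference of 1.26 for Ifit2 to 3.81 for Il23a. Both sets were picked by the same FcMR libraries that enter this comparison, which favours calls in the direction of the pick. Crisp3, Cd209a and Fosb held few counts after FcMR, which leaves little room for a call below isotype. The sets can therefore not be weighed against each other by these calls. A call missed between FcMR and isotype does not show that the levels are equal.

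At later times the lists differed in how far they stood from untreated. The cytokine list had a median log2 fold change against untreated of 5.23 at FcMR 4 h, 1.60 at 12 h and 0.37 at 24 h, and chemokines 4.26, 1.54 and -0.61. The antiviral list had 4.83, 4.06 and 3.30, and cell cycle genes -0.91, -1.84 and -1.56. Set directly against FcMR at 4 h, FcMR at 12 h gave 5426 calls (40.3%) and FcMR at 24 h gave 6681 (49.6%). Il23a fell by 8.86 on the log2 scale from 4 h to 24 h and Tnf fell by 6.42, whereas Il12a, among the genes with few untreated counts, fell by 0.70 and Cxcl5 was not called (adjusted p = 0.116). All these medians use the same 3 untreated libraries, so that they are not independent of one another.

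**Figure D5:**
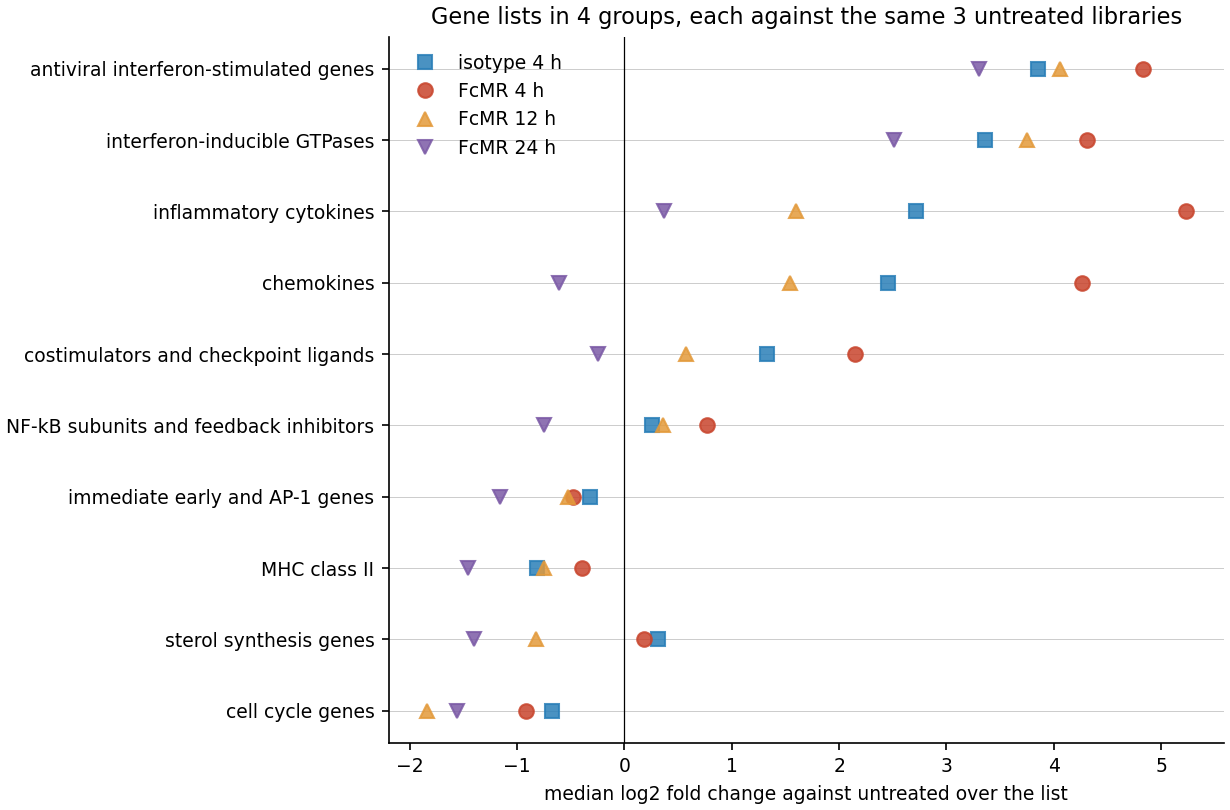
Median log2 fold change against the same 3 untreated libraries (x axis) over 10 gene lists for isotype at 4 h and FcMR at 4, 12 and 24 h. The cytokine median goes from 5.23 at FcMR 4 h to 0.37 at FcMR 24 h and the antiviral median from 4.83 to 3.30, with isotype 4 h at 2.72 and 3.85.

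Gene structure varied with the size of the change. Genes called over 4-fold higher had a median annotated span of 17 kb and those over 4-fold lower 15.9 kb, against 20.5 kb over all genes tested, while genes called higher by 4-fold or less spanned a median of 32.4 kb. The median GC content was 48.2% for genes over 4-fold higher and 54% for genes over 4-fold lower, against 49.5% over all genes tested. The FcMR libraries, as given above, also read relatively lower for GC-rich genes.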

How the data were processed

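RNA sequencing (75-base single-end reads from 100 ng of total RNA per library, per the labels' protocols) gave 21 libraries in 7 groups of 3. The submitters' processing notes name CASAVA 1.8.2, kallisto 0.44.0, DESeq2 and the builds mm10 and GRCm38. The authors deposited a table of estimated counts per gene, which were rounded to whole numbers here, and a table of normalized signal, used only as an alternative. How genes sharing reads, or strand, were treated is not given in the sources used here.

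Genes passing edgeR's filterByExpr (minimum count 10) were scaled by TMM and fitted in edgeR 4.0.16 under R 4.3.3, over all 21 libraries, by the quasi-likelihood method (checked on simulated data), with Benjamini-Hochberg adjustment over 13468 genes. Log2 fold changes are given ± SE. The SE comes from the quasi-likelihood fit and so includes the spread between libraries, while floors of 3 counts cover counting error only. Alternatives used DESeq2 1.42.0 and limma 3.58.1. Named genes were the top 12 by fold change in each direction (group mean of at least 10 CPM), the 6 largest CPM changes each way and 3 per list each way, with the study's targets; further genes were named after their values were seen. Members and lists were chosen with earlier results of these data known. Promoter windows came from RefSeq (GRCm38.p6), and gene positions from GENCODE (GRCm38). Some members of the lists are counted but their values are not reported here.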

Additional observations from a re-analysis of the deposited data

Results flagged for a closer look

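Of the 186 named genes tested, 22 changed from untreated in opposite directions at FcMR 4 h and at FcMR 24 h. They also differed by edgeR's test of 24 h against 4 h. Many of the named genes were picked for their change at 4 h. The share of all genes tested that meets the same rule was not counted, so 22 cannot be read as many or few. Both changes use the same 3 untreated libraries. Genes above untreated at 4 h and below it at 24 h included the cytokine and chemokine genes Tnf (log2 5.17 at 4 h and -1.24 at 24 h), Cxcl10 (6.05 and -0.82), Ccl24 (0.99 and -2.32), Ccl17 (0.47 and -3.46) and Tnfsf15 (4.69 and -0.47). The NF-kB inhibitors Nfkbia (1.15 and -1.06), Tnfaip3 (2.42 and -0.19) and Nfkbiz (4.12 and -0.64) were among them. So were Dusp2 (2.03 and -0.84), Maff (0.90 and -1.35), Pdcd1lg2 (0.74 and -0.59), Mki67 (0.96 and -0.97) and the sterol genes Idi1 (1.29 and -1.14), Fdps (1.24 and -0.60) and Nsdhl (0.76 and -0.36). Genes below untreated at 4 h and above it at 24 h were Clec7a (-0.81 and 0.68), Fcgr2b (-0.67 and 0.75), Nr4a2 (-1.62 and 0.75), Pik3cg (-0.43 and 0.68), Gclc (-0.49 and 0.56), Abca1 (-0.36 and 2.13) and P2rx7 (-0.27 and 1.52). P2rx7 also went the other way with isotype control at 4 h, where its log2 change from untreated was 0.47. By the rule for this list, each change from untreated given here was itself called, as was the difference between the conditions.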

How the results depend on the processing

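The count of genes called, 6498, lay between 4801 and 7953 under the alternatives and between 5478 and 5959 when 1 library was left out, each within 1.5 times. The largest count came from the replicate block with the GC correction (7953), and 7832 from the GC correction alone. The share higher among calls was 45% to 53.1% (46.3% in the main fit). Deviations of same-numbered libraries correlated at 0.0243, -0.0424 and 0.0299. With 3 pairs and no label on pairing, these values cannot show whether such libraries share a mouse or culture. The replicate block gave 6607 calls. Over 6 libraries only it gave 7055 (chosen after seeing the data, as was the authors' normalized table with 5604). None of 186 named tested genes reversed direction. Of 2044 values under alternatives 40 lost and 1 gained a call, and of 1116 values with a library left out 58 lost theirs. Depth limits genes near 3 counts, such as Mrc1, Ifnb1 and Mrc2.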
